A study of Rattus norvegicus and Ovis aries with 113 samples.

Results

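The hippocampus of the sheep was compared with the neocortex of the same animals. All 5 libraries labelled hippocampus were used, 1 from each of sheep 687, 688, 690, 694 and 699, with the 25 libraries from frontal, motor, prefrontal, posterior parietal and visual cortex of those sheep. They are 30 of the 55 sheep libraries and of the 113 libraries of the series, which asks which genes link neurological and reproductive functions in mammals. The animals were post-pubertal males that received no specific treatment, and their samples came from the same hemisphere. RNA was extracted with TRIzol, treated with DNase I and made into stranded mRNA libraries, so each value is an average over all cells of a dissected piece of tissue. No subfield of the hippocampus and no cortical layer was taken apart. The other sheep regions, sperm and the rat libraries were not used.

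The hippocampus is an infolded strip of cortex at the edge of the cerebral hemisphere. Granule cells of the dentate gyrus receive input from the entorhinal cortex and pass it through mossy fibres to pyramidal neurons of field CA3, which project to CA1, while the small field CA2 lies between them. The dentate gyrus is one of the few places where neural stem cells persist in adult mammals. The neocortex has instead a stack of layers whose excitatory neurons are specified by transcription factors such as CUX2 and TBR1, and it lies away from the ventricle wall and choroid plexus that border the hippocampus.

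Library totals ranged from 46.7 to 68.95 M counts (M stands for 1000000) in hippocampus and from 49.18 to 72.4 M in neocortex. Of 31304 genes in the table, 20378 passed the filter on low counts and were tested with the edgeR quasi-likelihood test, with the 5 neocortical libraries of a sheep summed and the sheep as a block. A gene was called when its Benjamini-Hochberg adjusted p was below 0.05 and its absolute log2 fold change, hippocampus minus neocortex, was at least 1. Levels are counts per 1000000 (CPM) scaled by trimmed mean of M values (TMM) factors. Hippocampal levels are listed in the order of sheep 687, 688, 690, 694 and 699. Neocortical levels are the lowest, median and highest of 25 libraries, or the mean and SD over 5 sheep.

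3 libraries stood apart, and results that rest on them are given with and without them. The library labelled hippocampus of sheep 694 held cerebellar and choroid plexus transcripts. GABRA6, the GABA-A receptor subunit of cerebellar granule cells, had 147 counts or 1.83 CPM there. It had 3, 0, 1 and 0 counts in the hippocampal libraries of sheep 687, 688, 690 and 699, where 0 counts allow up to 0.0642 CPM in sheep 688 and 0.0518 CPM in sheep 699, for counting error only. The 25 neocortical libraries together had 4 counts. EN2, a midbrain and cerebellar homeobox gene, was at 1.18 CPM in sheep 694 and at 0 to 0.0646 CPM in the other 4. FAT2, a cadherin of cerebellar granule cells, was at 4.96 CPM against 0.16 to 0.419 CPM. CBLN3, CDH15 and PCP2 were also highest in sheep 694, PCP2 by little (1.36 CPM against 0.971 CPM in sheep 699). EN1 was not, at 0.0997 CPM in sheep 694 and 0.433 CPM in sheep 699. Over the 7 defining cerebellar genes, the mean log2(CPM + 1) was 1.536 in sheep 694 and 0.492 to 0.601 in the other hippocampal libraries, with a range of 0.375 to 0.826 in neocortex. TTR, the transthyretin secreted by choroid plexus, was at 1360 CPM in sheep 694 and at 50.9 to 168 CPM in the other 4.

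The library labelled hippocampus of sheep 699 had low levels of genes that were abundant in the other 4. HPCA, which encodes the neuronal calcium sensor hippocalcin, was at 743, 801, 425 and 472 CPM in sheep 687, 688, 690 and 694 and at 54.5 CPM in sheep 699, below the lowest neocortical library at 63.3 CPM. RELN, which encodes the secreted glycoprotein reelin, was at 358 CPM in sheep 699, above its range of 11.5 to 84.1 CPM in the other 4 and of 23.9 to 157 CPM in neocortex. Sheep 699 also had the highest NDNF of the 30 libraries, 106 CPM, against a neocortical range of 8.13 to 50.6 CPM. HPCA and NDNF were chosen after their values were seen.

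The third was the library labelled motor cortex of sheep 687. CUX2, a homeobox factor of upper-layer neurons, was at 10.0 CPM there and at 34.7 CPM or more in the other 24 neocortical libraries. MEF2C, an activity-regulated factor of excitatory neurons, was at 36.6 CPM there and at 295 CPM or more in the others, and TTR was at 759 CPM there with at most 59.8 CPM in the others. Over 15777 genes, the median Spearman correlation of this library was 0.9533 with the hippocampal and 0.9377 with the other neocortical libraries. Each of the other 24 correlated more with neocortex than with hippocampus. Among them the posterior parietal library of sheep 694 had the lowest correlation with neocortex (0.9371, and 0.9211 with hippocampus). It also had the highest neocortical level of the endothelial and mural list (7.161) and was not left out on its own. The motor cortex library of sheep 687 kept its label and entered the neocortical sum of that sheep except where stated.

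**Figure D1:**
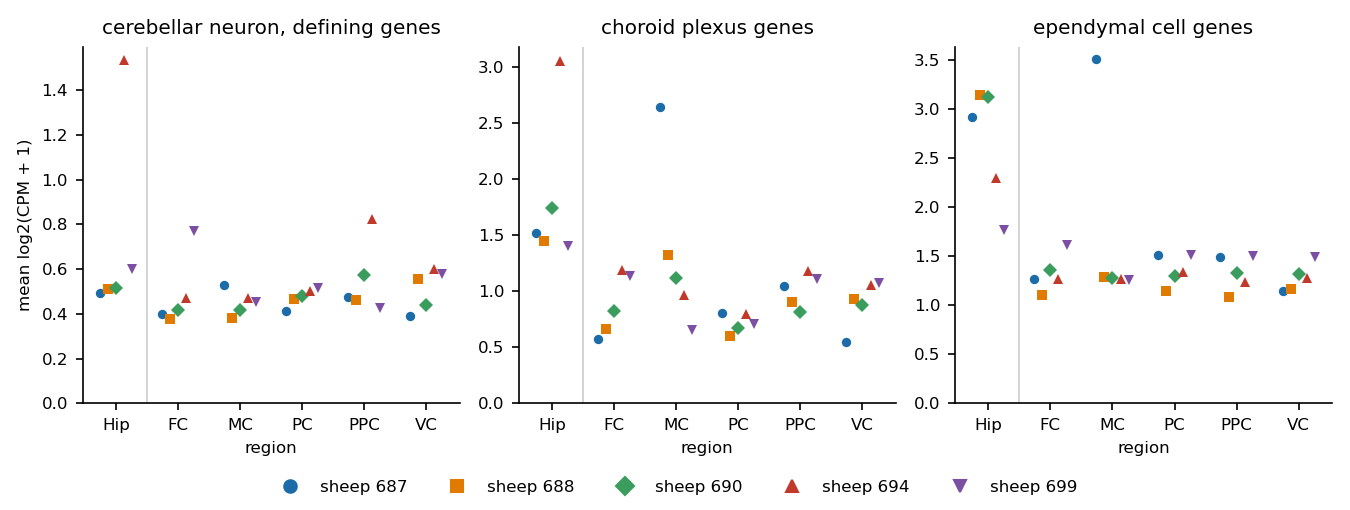
Mean log2(CPM + 1) of 3 gene lists (y axis) in hippocampus (Hip) and 5 neocortical regions (x axis; FC frontal, MC motor, PC prefrontal, PPC posterior parietal, VC visual cortex), with 1 point per library and 1 colour and shape per sheep. Cerebellar genes reach 1.536 in the hippocampal library of sheep 694, choroid plexus genes reach 3.052 there and 2.645 in the motor cortex library of sheep 687, and ependymal genes reach 3.507 in the latter.

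In all, 522 genes (2.56% of those tested) were called higher in hippocampus and 685 (3.36%) lower. The median log2 fold change of all tested genes was -0.012. Placeholder symbols, such as LOC numbers, stood for 171 of the genes called higher and 201 of those called lower. These are not described here. All 5 hippocampal libraries lay above all 25 neocortical libraries for 49 tested genes (0.240%) and below them for 55 (0.270%). Without the motor cortex library of sheep 687, 675 genes (3.32%) were called higher and 758 (3.73%) lower, and the tested genes with no overlap numbered 205 (1.01%) and 309 (1.52%). The counts also moved by over 1.5 times when 1 sheep was left out: 787 genes (3.86%) were called without sheep 687 and 682 (3.34%) without sheep 690, against 1207 with all 5. Without sheep 694, 248 (1.22%) were called higher and 437 (2.14%) lower, and without sheep 699 the total was 1401 (6.87%). In sheep 687, 688 and 690 alone, without the motor cortex library of sheep 687, 798 genes (3.94%) were called higher and 790 (3.90%) lower. This 3-sheep comparison leaves out all of the libraries that stood apart and was added after the data were seen. Genes such as TTR and HPCA set those libraries apart. PROX1, NR3C2, BDNF and FOXJ1, described below, were lowest of all hippocampal libraries in that of sheep 699. Adjusted p-values of such genes in this comparison, or without sheep 699, are therefore not independent evidence. Among the genes of the lists used below and the genes named by rule, 122 were called with all 5 sheep. Of these 66 kept the call whichever sheep was left out, and 56 lost it without at least 1 sheep, which is stated where such a gene is described. The shares over all tested genes, 2.56% higher and 3.36% lower, stand beside every list count below. No list was tested against them.

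The genes of dentate granule cells included 3 that were called higher of 14 tested and none lower, with a median log2 fold change of 0.220. They were PROX1, PDYN and PLK5. Without sheep 699, C1QL3 and NEUROD1 were called as well (5 higher), without any other 1 sheep 2 were called higher, and the 3-sheep comparison gave 4 higher and 1 lower (FAM163B). DESeq2 called 1 gene lower (TRPC6). PROX1, the homeobox factor that keeps granule cell identity, was at 43.1, 35.0, 31.5, 80.4 and 12.1 CPM in the 5 hippocampal libraries and at 6.40, 11.3 and 22.3 CPM (lowest, median, highest) in neocortex. The libraries of 4 sheep lay above every neocortical library and that of sheep 699 lay within their range. In sheep 699 the log2 ratio of (CPM + 1) over its own mean neocortex was -0.105. The log2 fold change was 1.55 ± 0.35 (SE, n = 5 sheep), with an adjusted p of 0.0272 by edgeR. The call was lost when any 1 of sheep 687, 688, 690 or 694 was left out (adjusted p 0.0579 to 0.0896), but not without sheep 699. In the 3-sheep comparison the log2 fold change was 1.81 with an adjusted p of 0.00790.

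PDYN encodes prodynorphin, the precursor of opioid peptides stored in mossy fibres. Its level was 80.4, 60.5, 48.9, 90.1 and 12.0 CPM in hippocampus, and 2.46, 6.46 and 26.7 CPM in neocortex, where the highest was the motor cortex library of sheep 687. The same 4 sheep stood above every neocortical library. It differed by 2.49 ± 0.42 (SE, n = 5 sheep) with an adjusted p of 0.0117, and the call was kept whichever sheep was left out. PLK5, a brain member of the polo-like kinase family, was higher by 2.75 ± 0.37 with an adjusted p of 0.00640. Several granule cell markers known from rodents did not pass the test. CALB1, which encodes the calcium buffer calbindin, averaged 1.15 CPM in hippocampus and 0.658 CPM in neocortex, and C1QL2, which encodes a synaptic organiser of mossy fibres, averaged 8.17 and 9.60 CPM.

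DRD2, the dopamine receptor carried by hilar mossy cells, was the 1 called gene of 4 in the mossy cell list. It was at 3.17, 5.39, 2.52, 3.28 and 2.69 CPM in hippocampus, and no neocortical library other than the motor cortex of sheep 687 (3.35 CPM) exceeded 1.53 CPM. The difference was 1.48 ± 0.21 with an adjusted p of 0.00786. CALB2, CALCRL and CSF2RB had log2 fold changes between -0.19 and -0.06 and were not called.

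Among transcription factors of the hippocampus and medial pallium, 2 of 13 tested were called higher and none lower, and their median log2 fold change was 0.426. ZBTB20, a zinc finger repressor needed for hippocampal neuron identity, was at 420, 680, 439, 625 and 312 CPM. Neocortical libraries ranged from 120 to 345 CPM with a median of 196 CPM, so only sheep 699 overlapped with them. The difference was 1.24 ± 0.24 with an adjusted p of 0.0177. The adjusted p was 0.0532, 0.0597 and 0.0647 without sheep 687, 690 and 694, and 0.0148 in the 3-sheep comparison. LMO1, a LIM-only cofactor, was higher by 1.72 ± 0.30 with an adjusted p of 0.0123. Smaller differences with adjusted p below 0.05 were found for NFIA (0.47), NFIB (0.52), LHX2 (0.43) and DMRTA2 (0.80), which stayed under the fold threshold. Without sheep 699 DMRTA2 was called, making 3. EMX1, a dorsal forebrain homeobox gene, had a log2 fold change of -0.66.

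Markers of pyramidal fields taken from rodents were mostly lower. The median log2 fold change was -0.615 for the CA3 list, -0.329 for CA2 and -0.405 for CA1 and subiculum. RGS14 was the only gene of these lists called higher. In the CA3 list none of 9 tested genes was called higher and 3 were called lower (SOCS2, PRSS23 and COCH). Of these PRSS23, a serine protease gene, kept the call whichever sheep was left out, SOCS2 lost it without any 1 of sheep 687, 688, 690 and 694, and COCH without any 1 of sheep 687, 688 and 690. GRIK4, the kainate receptor subunit of CA3, was at 31.3, 27.5, 26.7, 18.9 and 15.1 CPM against a neocortical mean of 14.8 ± 1.76 CPM. The difference of 0.67 ± 0.14 had an adjusted p of 0.0200 and did not reach the fold threshold. In CA2, RGS14, a signalling regulator that limits plasticity, and PCP4, a calmodulin regulator, were called in opposite directions. RGS14 was at 43.1, 93.1, 13.6, 57.2 and 13.8 CPM in hippocampus with a neocortical maximum of 18.8 CPM, and differed by 2.28 ± 0.55 (adjusted p 0.0331). The call was lost without sheep 687, 688 or 694 (adjusted p 0.0549 to 0.103) and in the 3-sheep comparison (adjusted p 0.0835). PCP4 was at 7.48, 11.4, 7.36, 15.1 and 9.02 CPM in hippocampus and at 20.5 CPM or more in every neocortical library but the motor cortex of sheep 687 (6.87 CPM). It differed by -2.17 ± 0.16 with an adjusted p of 0.00212.

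In the CA1 and subiculum list, none of 8 tested genes was called higher, and MPPED1 and NTS were called lower. WFS1 was also called lower without sheep 699 or without the motor cortex library of sheep 687, and the 3-sheep comparison called 4. MPPED1, a metallophosphoesterase gene, averaged 39.1 ± 10.5 CPM in hippocampus and 194 ± 27.8 CPM in neocortex, a log2 fold change of -2.32 ± 0.19 with an adjusted p of 0.00248. NTS, the neurotensin precursor, lost its call without sheep 687, 690 or 694 (adjusted p 0.0642 to 0.0716). FIBCD1, a defining marker of CA1 in mouse, was at 24.4, 36.7, 3.97, 12.3 and 0.628 CPM, against a neocortical range of 1.43 to 27.7 CPM. The groups overlapped over almost the whole range, and the adjusted p was 0.924. POU3F1 reached 60.8 CPM in sheep 688 and 2.78 to 12.7 CPM in the other 4. WFS1 averaged 32.3 CPM in hippocampus and 62.2 CPM in neocortex, a log2 fold change of -0.99 with an adjusted p of 0.0321.

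Several neuronal genes separated 4 hippocampal libraries from neocortex but not that of sheep 699. They were chosen after their values were seen, so their p-values in comparisons without sheep 699 are not independent evidence. HPCA had a log2 fold change of 1.81 ± 0.52 with an adjusted p of 0.0523 in 5 sheep and of 2.51 with an adjusted p of 0.00245 in the 3-sheep comparison. CABP7, a neuronal calcium-binding protein gene, was at 77.7, 52.0, 80.1, 32.0 and 2.69 CPM in hippocampus. Apart from 84.5 CPM in the motor cortex library of sheep 687, no neocortical library exceeded 17.0 CPM. Its adjusted p was 0.0988 over 5 sheep and 0.00120 in the 3-sheep comparison. NEUROG2, a proneural factor, was at 11.7, 13.3, 10.3, 12.1 and 0.149 CPM, with 1.53, 3.28 and 10.3 CPM in neocortex. NPTX1, which encodes a pentraxin that clusters AMPA receptors, was at 610, 277, 393, 411 and 27.0 CPM. In sheep 699 both lay below the lowest neocortical library, which held 45.0 CPM of NPTX1.

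SHISA6 and DOC2B, also chosen after their values were seen, were called with all 5 sheep. In both, all 5 hippocampal libraries lay above the neocortical libraries other than the motor cortex of sheep 687. SHISA6, an auxiliary subunit gene of AMPA receptors, was at 156, 103, 113, 97.4 and 22.5 CPM in hippocampus, against at most 19.2 CPM in the 24 neocortical libraries other than the motor cortex of sheep 687 (98.9 CPM). It differed by 2.53 ± 0.38 with an adjusted p of 0.00859. DOC2B, a calcium sensor of vesicle release, was at 57.0, 48.4, 59.0, 46.6 and 32.1 CPM in hippocampus. Every one of the other 24 neocortical libraries was at or below 20.8 CPM, and the motor cortex library of sheep 687 was at 54.9 CPM. The log2 fold change of 1.90 ± 0.16 had an adjusted p of 0.00248.

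**Figure D2:**
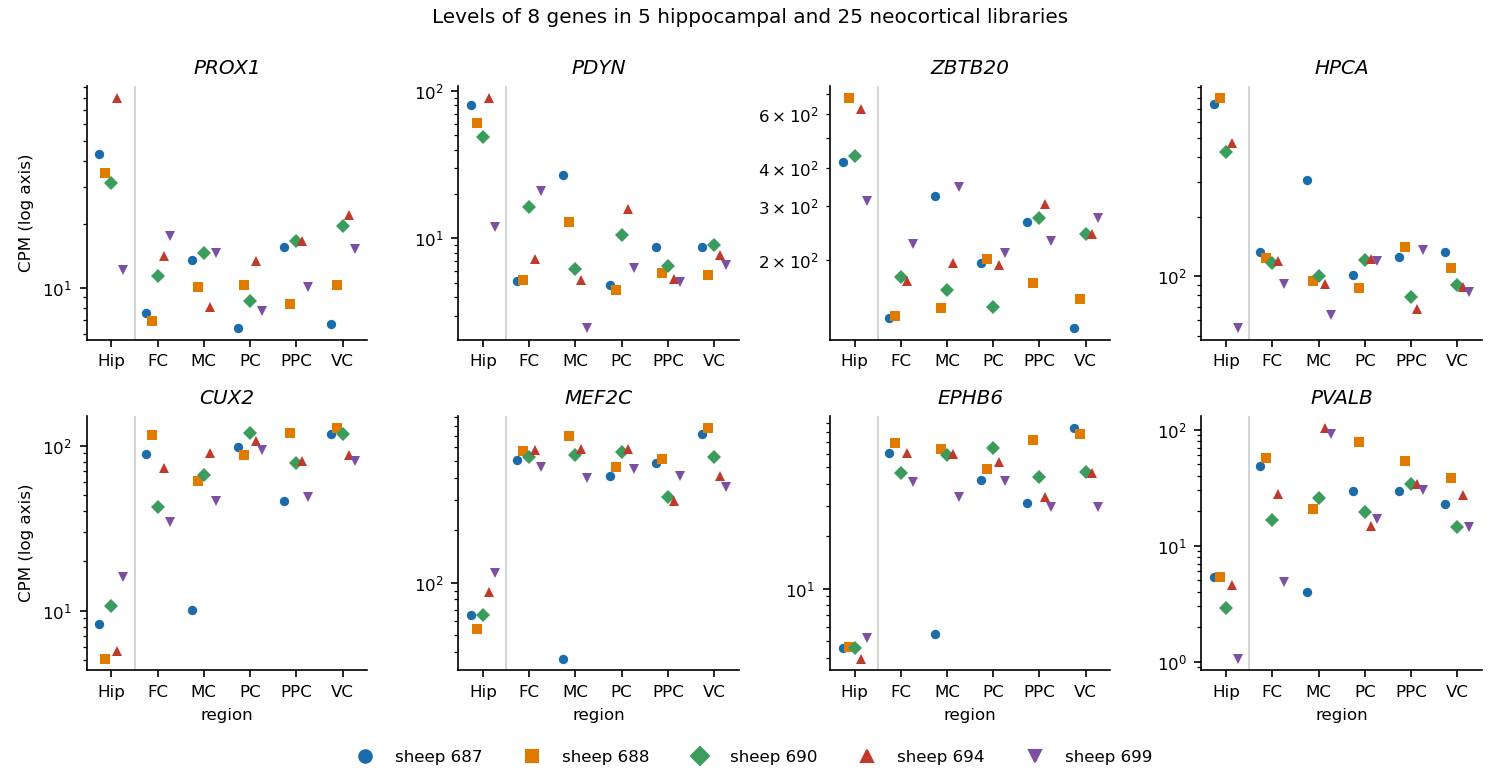
CPM on a log axis (y) of 8 genes in hippocampus and 5 neocortical regions (x), with 1 point per library and 1 colour and shape per sheep. PROX1, PDYN, ZBTB20 and HPCA are high in 4 hippocampal libraries and lower in that of sheep 699. CUX2, MEF2C, EPHB6 and PVALB are low in hippocampus and in the motor cortex library of sheep 687.

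The adult neurogenesis list had 4 genes called higher of 14 tested and none lower, with a median log2 fold change of 0.486. EOMES, a T-box factor of intermediate progenitors, was at 0.791, 1.72, 0.858, 4.65 and 0.239 CPM in hippocampus and at no more than 0.190 CPM in any neocortical library. The groups did not overlap, although the levels were low, and the log2 fold change was 4.55 ± 0.73 with an adjusted p of 0.0106. The mean level of the defining cerebellar genes was also highest in sheep 694, and their part in the EOMES value was not tested. Without sheep 694 the log2 fold change of EOMES was 3.96 with an adjusted p of 0.0331. IGFBPL1, a gene of neuroblasts, and TFAP2C, a transcription factor of progenitors, were higher by 2.00 ± 0.40 and 2.41 ± 0.45. The call of IGFBPL1 was lost without sheep 687, 690 or 694 (adjusted p 0.0514 to 0.0680) and that of TFAP2C without sheep 690 (adjusted p 0.0573). Markers of proliferation and of immature neurons were not called: MKI67 averaged 1.72 and 1.06 CPM and DCX 46.9 and 34.4 CPM in hippocampus and neocortex. STMN1, a microtubule regulator of growing neurons, had a log2 fold change of -0.70.

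Several genes that mark neocortical excitatory neurons were called lower. In the list of upper layers 3 of 11 tested were called lower and 1 higher (median -0.769, with LAMP5 losing its call without sheep 687, 688, 690 or 699), and among projection neuron transcription factors 3 of 10 were called lower and 1 higher (median -0.181). CUX2 was at 8.35, 5.13, 10.7, 5.69 and 16.0 CPM in hippocampus with a neocortical median of 87.5 CPM. Apart from the motor cortex library of sheep 687, every neocortical library was above these values. CUX2 differed by -3.24 ± 0.35 with an adjusted p of 0.00385. MEF2C averaged 77.1 ± 23.7 CPM in hippocampus and 488 ± 74.6 CPM in neocortex, a log2 fold change of -2.68 ± 0.23 with an adjusted p of 0.00250. In bulk tissue, fewer cells of a type and less RNA per cell cannot be told apart.

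In deeper layers, 3 of 13 tested layer 5 genes were called lower and none higher (median 0.098), and 4 of 13 layer 6 genes were called lower and 1 higher (median -0.076). The layer 6 count fell to 0 without sheep 687 and to 1 without sheep 690 or 694. Besides TBR1 its genes were FOXP2 (call lost without sheep 687, 690 or 694), CPLX3 (without 687 or 690) and OPRK1 (without any 1 sheep). In the layer 5 list ADCYAP1 lost its call without sheep 687 or 694. TBR1, a T-box factor of layer 6, was at 7.99, 9.31, 2.2, 10.5 and 17.0 CPM in hippocampus and at 13.8 CPM or more in the neocortical libraries other than the motor cortex of sheep 687 (3.21 CPM). Of the 5 hippocampal values only that of sheep 699 exceeded 13.8 CPM. The difference was -2.2 ± 0.42 with an adjusted p of 0.0166, and the call was lost without sheep 687 (adjusted p 0.0563) or 694 (0.0501). PARM1, a mucin-like gene, and SCN4B, a sodium channel subunit of fast-firing neurons, were lower, with log2 fold changes of -1.81 ± 0.17 and -2.69 ± 0.23. Not every deep-layer gene followed. FEZF2, the selector gene of layer 5 output neurons, averaged 16.4 ± 9.20 CPM in hippocampus and 11.0 ± 2.97 CPM in neocortex and was not called in 5 sheep, while the 3-sheep comparison gave 1.01 with an adjusted p of 0.0134. BCL11B was at 35.7, 91.8, 10.7, 59.3 and 25.7 CPM in hippocampus with a neocortical maximum of 20.5 CPM, so 4 of 5 libraries lay above it, and its adjusted p was 0.0782.

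The genes called higher in these neocortical lists were WHRN (1.65 ± 0.26), SEMA3E (1.10 ± 0.29) and BHLHE22 (1.94 ± 0.27). BHLHE22, a transcription factor of excitatory neurons in both structures, was at 85.4, 112, 68.8, 129 and 38.3 CPM in hippocampus. Of the neocortical libraries only the motor cortex of sheep 687, at 60.8 CPM, exceeded 36.2 CPM. The call of SEMA3E was lost without sheep 687, 690 or 694 (adjusted p 0.0730 to 0.118).

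Among interneuron genes, 6 of 21 tested were called lower and only PROX1, which also marks granule cells, higher (median -0.688). PVALB, the calcium buffer of fast-spiking interneurons, was at 5.31, 5.39, 2.88, 4.60 and 1.06 CPM in hippocampus and at 3.95, 27.8 and 103 CPM in neocortex. The 3 hippocampal values above the neocortical minimum were those of sheep 687, 688 and 694, and the log2 fold change was -3.19 ± 0.32 with an adjusted p of 0.00319. CCK, the cholecystokinin precursor made by interneurons and by pyramidal neurons, was at 34.7, 36.0, 20.1, 27.0 and 25.1 CPM. Outside the motor cortex library of sheep 687, at 31.4 CPM, the lowest neocortical value was 62.5 CPM. It differed by -2.59 ± 0.16 with an adjusted p of 0.00108. HTR3A, the serotonin-gated channel of a class of interneurons, was at 0.463 to 0.655 CPM in hippocampus and averaged 4.51 ± 0.68 CPM in neocortex, a log2 fold change of -2.99 ± 0.16 with an adjusted p of 0.000594. VIP (-2.01 ± 0.28), CORT (-1.67 ± 0.30) and CRH (-2.56 ± 0.50), which encode interneuron peptides, were also lower, and the call of CRH was lost without sheep 690 (adjusted p 0.0630) or 694 (0.0535). The genes for GABA synthesis and release did not reach the call: GAD2 had a log2 fold change of -0.64 and SLC32A1, the vesicular GABA transporter, of -0.97. SST, which encodes somatostatin, averaged 110 CPM in hippocampus and 168 CPM in neocortex (adjusted p 0.156).

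**Figure D3:**
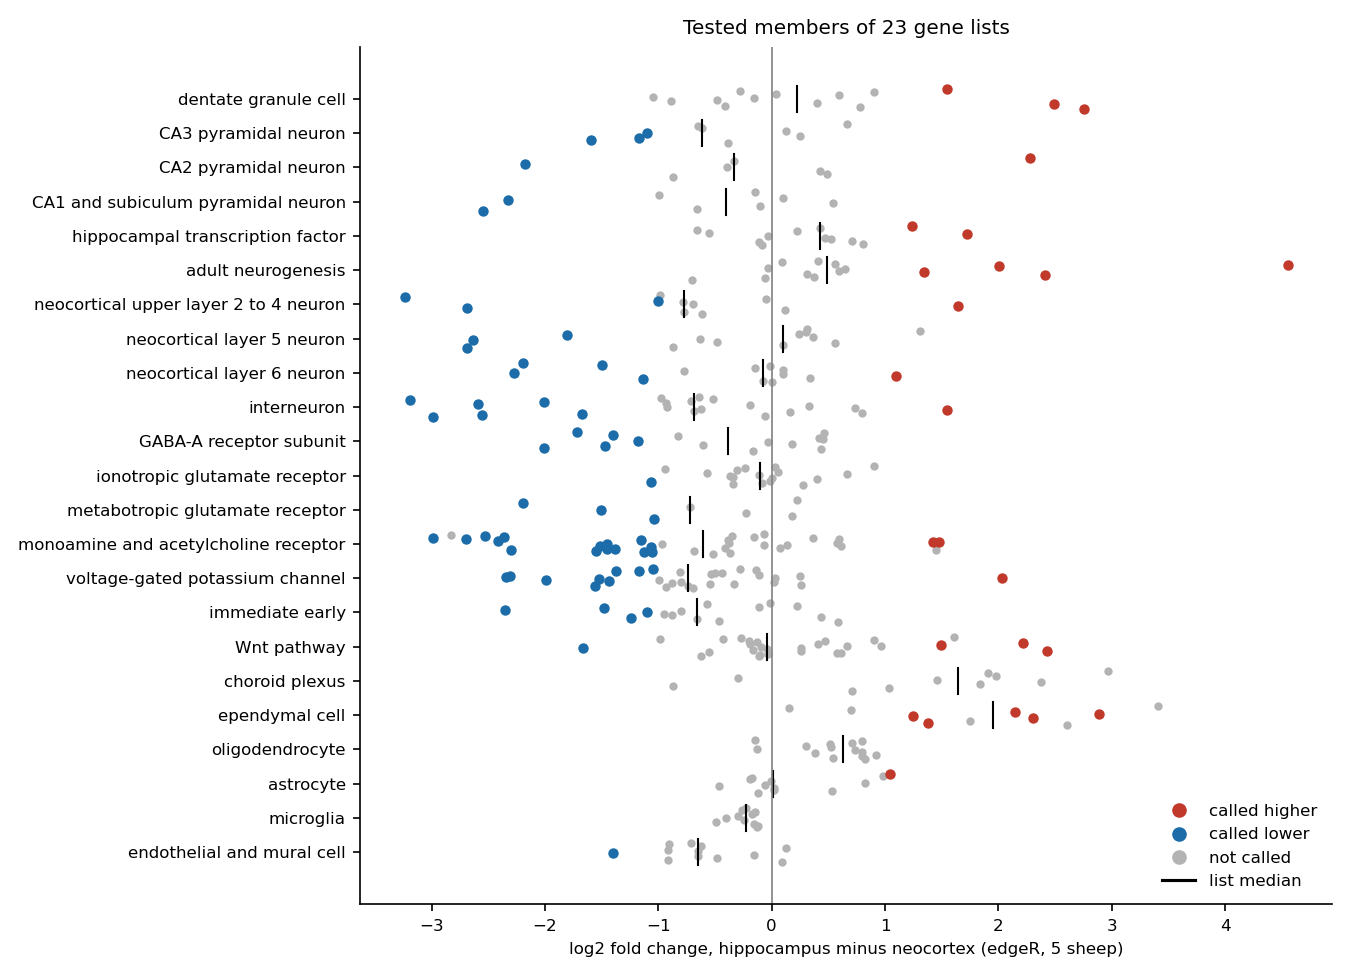
Log2 fold change, hippocampus minus neocortex (x), of the tested members of 23 gene lists (y), with 1 point per gene, colour for the call and a bar at each list's median. Called genes of the interneuron, receptor and potassium channel lists lie mostly below 0, and ependymal genes lie above 0.

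Receptor genes were mostly lower where they were called. Over all tested genes 3.36% were called lower and 2.56% higher. Of 14 tested GABA-A receptor subunits 5 were called lower and none higher (median -0.389). GABRD, the subunit of extrasynaptic receptors, was at 9.67, 4.89, 4.79, 9.01 and 6.80 CPM in hippocampus, and at 12.7 CPM or more in the neocortical libraries other than the motor cortex of sheep 687 (4.90 CPM). It differed by -2.01 ± 0.20 with an adjusted p of 0.00319, and GABRA3, GABRB2 and GABRG3 differed by -1.40, -1.18 and -1.47. The calls of GABRB2 (without sheep 688 or 694) and GABRG3 (without sheep 687, 690 or 694) were lost in 4 sheep. GABRA5, the subunit known for its abundance in hippocampus, averaged 77.5 and 53.5 CPM in hippocampus and neocortex and was not called (0.42, adjusted p 0.230). In the 3-sheep comparison its difference of 0.88 had an adjusted p of 0.0172.

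Of 18 ionotropic glutamate receptor genes only GRIN3A, a modulatory NMDA receptor subunit, was called, and lower (-1.06 ± 0.27), and it lost the call without any 1 of sheep 687, 688, 694 and 699. The list's median was -0.101, and 1 call among 18 is not far from the 3.36% of all tested genes called lower. GRIA1, an AMPA receptor subunit, averaged 463 ± 139 CPM in hippocampus and 239 ± 34.2 CPM in neocortex, a difference of 0.90 ± 0.19 with an adjusted p of 0.0211 that stayed under the fold threshold. Of the 7 metabotropic receptors tested, GRM2, GRM4 and GRM8 were called lower, with log2 fold changes of -2.19 ± 0.31, -1.51 ± 0.14 and -1.04 ± 0.16. GRM8 lost the call without sheep 688 or 694, where the log2 fold change was -0.99 and -0.92. GRM5, a receptor coupled to Gq, had a log2 fold change of -0.23 and was not called.

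Of 36 tested receptors for serotonin, dopamine, noradrenaline and acetylcholine, 15 were called lower and 2 higher, with a median log2 fold change of -0.604. The largest differences among those called lower were those of HTR3A, HTR5A (-2.70 ± 0.55) and HTR1D (-2.52 ± 0.55), followed by DRD1, the main dopamine receptor coupled to stimulation of adenylyl cyclase. DRD1 was at 2.42, 1.64, 4.20, 2.03 and 7.23 CPM in hippocampus and at 4.39, 15.4 and 28.5 CPM in neocortex, a difference of -2.41 ± 0.35 with an adjusted p of 0.00748. The calls of HTR5A (without sheep 687) and HTR1D (without sheep 687, 690 or 694) were lost in 4 sheep, and that of DRD1 was not. DRD2 and DRD3 were the 2 called higher, and DRD3 lost the call without sheep 690 or 694 (adjusted p 0.0654 and 0.0703). The muscarinic receptors CHRM2, CHRM3 and CHRM4 were lower, with log2 fold changes of -1.45, -1.39 and -2.30, whereas CHRM1 averaged 69.1 and 82.5 CPM and was not called. CHRM2 lost the call without sheep 687 or 694 (adjusted p 0.0568 and 0.0760). HTR1A, the inhibitory serotonin receptor that is dense in hippocampus of many mammals, was at 12.1, 13.3, 5.94, 15.9 and 1.93 CPM, with a neocortical range of 3.27 to 14.2 CPM (adjusted p 0.938). Without sheep 694, 8 genes of this list were called lower and 1 higher, as without sheep 690, and without sheep 687 it was 7 lower and 2 higher.

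Receptors for steroid and stress hormones gave 1 call upward and 2 downward of 13 tested, with a median log2 fold change of 0.213. The upward count was 0 without sheep 687 or 690 and 2 without the motor cortex library of sheep 687, and the downward count was 1 without sheep 687, 690 or 694 and 3 without sheep 699. NR3C2, the mineralocorticoid receptor, was at 64.1, 63.3, 52.9, 51.4 and 24.3 CPM in hippocampus and at 16.5, 24.4 and 52.4 CPM in neocortex, where the maximum was again the motor cortex library of sheep 687 and the next was 30.5 CPM. Sheep 699 was the only hippocampal library inside the range of the other 24. The difference of 0.99 ± 0.15 had an adjusted p of 0.00875 and lay just under the fold threshold, and it was 1.30 in the 3-sheep comparison (adjusted p 0.00616). NR3C1, the glucocorticoid receptor, averaged 54.4 ± 12.7 and 47.0 ± 7.91 CPM and was not called. ESR2 (-2.26 ± 0.48) and CRHR1 (-1.95 ± 0.32), an oestrogen receptor and the main receptor of corticotropin-releasing hormone, were lower. The call of ESR2 was lost without sheep 687, 690 or 694 (adjusted p 0.0643 to 0.0750). ESR1 averaged 3.66 and 3.28 CPM, KISS1R 1.17 and 1.84 CPM and GNRHR 0.249 and 0.174 CPM in hippocampus and neocortex, and none was called.

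Of 29 tested voltage-gated potassium channel genes 9 were called lower and 1 higher (median -0.740). KCNF1, a silent subunit that modifies Kv2 channels, was at 16.8, 11.5, 9.75, 3.89 and 6.56 CPM in hippocampus and at 16.8, 42.3 and 98.6 CPM in neocortex, with no overlap before rounding. It differed by -2.31 ± 0.23 with an adjusted p of 0.00321. KCNIP3, a calcium-sensing channel partner, was at 20.0, 40.7, 21.4, 23.4 and 41.8 CPM in hippocampus and at 48.3 CPM or more in neocortex outside the motor cortex library of sheep 687 (12.2 CPM), and it differed by -1.55 ± 0.17. KCNG2, another silent subunit, was called higher (2.04 ± 0.52) and lost the call without any 1 of sheep 687, 688, 690 and 694 (adjusted p 0.0788 to 0.121). Its level in sheep 699, 2.15 CPM, was far below the 22.9 to 31.1 CPM of the other 4.

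Immediate early genes, which neurons induce after activity, had 4 of 15 called lower and none higher (median -0.661). EGR2 averaged 1.68 ± 0.915 CPM in hippocampus and 8.01 ± 1.75 CPM in neocortex, a difference of -2.35 ± 0.33 with an adjusted p of 0.00721. NPAS4 differed by -1.24 ± 0.20. EGR4 lost its call without sheep 690, 694 or 699, and without sheep 690 or 694 only 2 genes of the list were called. FOS and ARC were not called, with log2 fold changes of -0.02 and -0.95. EGR1 was at 9.04 to 13.3 CPM in 4 hippocampal libraries and at 32.9 CPM in sheep 699, and its call (-1.48 ± 0.37) was lost without any 1 of the other 4 sheep (adjusted p 0.0730 to 0.116). Of 23 synaptic plasticity genes, 2 were called lower and 1 higher (median -0.229), and 4 were called lower without the motor cortex library of sheep 687. HOMER1, a postsynaptic scaffold, was lower in all 5 libraries than in any neocortical library (-1.27 ± 0.20, adjusted p 0.00920), and ADCY8, an adenylyl cyclase stimulated by calcium, differed by -1.12 ± 0.18 and by -0.94 without sheep 690, under the fold threshold. CAMK2A, the kinase of long-term potentiation, averaged 2047 and 2378 CPM and was not called. BDNF, the growth factor of plastic synapses, was at 45.6, 35.8, 20.5, 45.7 and 2.84 CPM in hippocampus with a neocortical median of 12.9 CPM. Its adjusted p was 0.354 in 5 sheep, and without sheep 699 the log2 fold change was 1.22 with an adjusted p of 0.0120. Since sheep 699 was the lowest, the latter is not independent evidence.

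In the Wnt pathway, which patterns the medial pallium, 3 of 28 tested genes were called higher and 1 lower, with a median of -0.038. The higher count was 5 without sheep 699 or with 30 separate libraries. SFRP2, a secreted Wnt-binding protein gene, was at 44.7, 41.2, 32.0, 49.3 and 22.0 CPM in hippocampus and at no more than 15.2 CPM in neocortex outside the motor cortex library of sheep 687 (40.2 CPM). The difference was 2.43 ± 0.37 with an adjusted p of 0.00883. FZD5, a Wnt receptor, was higher by 1.50 ± 0.21, and the ligand WNT8B by 2.21 ± 0.44 at a mean of only 0.257 CPM. DKK2, a secreted modulator of Wnt signals, was lower (-1.66 ± 0.33). The calls of WNT8B (without sheep 690 or 694) and DKK2 (without sheep 687 or 690) were lost in 4 sheep. Vesicular glutamate transporters split: SLC17A7 averaged 479 and 463 CPM and was not called, SLC17A6 was lower (-1.73 ± 0.32) and SLC17A8 higher (3.12 ± 0.65). The call of SLC17A8 was lost without sheep 687, 690 or 694 (adjusted p 0.0738 to 0.0774).

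Some markers of cells of the ventricle wall were called higher in hippocampus. Of 10 tested ependymal genes, which build motile cilia, 5 were called higher and none lower, with a median log2 fold change of 1.952. The count was 2 without sheep 690, 3 without sheep 688 or 694, and 8 without sheep 699, without the motor cortex library of sheep 687, or with DESeq2, limma-voom or 30 separate libraries. In the 3-sheep comparison 8 of the 10 were called and the median was 2.910. CFAP54, a cilium assembly gene, was at 22.8, 29.7, 24.1, 17.0 and 9.82 CPM in hippocampus and at no more than 5.16 CPM in neocortex outside the motor cortex library of sheep 687 (30.5 CPM). It differed by 2.30 ± 0.35 with an adjusted p of 0.00883. The master regulator FOXJ1 was at 9.85, 19.5, 15.3, 5.74 and 0.956 CPM, with at most 0.932 CPM in 24 neocortical libraries and 24.9 CPM in the other. Its adjusted p was 0.0545 with all libraries and 0.000812 in the 3-sheep comparison, at a log2 fold change of 5.58. The left-out motor cortex library of sheep 687 had the highest ependymal level, 3.507. Neither this p-value nor the 8 calls of that comparison are therefore independent evidence. Of 10 tested choroid plexus genes none was called, at a median of 1.647. This count depended on 1 library and on the method: 6 were called higher without the motor cortex library of sheep 687, 6 with DESeq2, 6 with 30 separate libraries and 3 with limma-voom. Over all tested genes (20323 in the first and 20378 in the others) these fits called 675, 711, 854 and 616 higher. The main fit called 522 higher. The 3-sheep comparison called 4 choroid plexus genes, with TTR at 3.73 (adjusted p 0.00147). TTR was among the genes by which the left-out libraries stood apart, so this p-value is not independent evidence. The ependymal and choroid plexus lists moved with the comparison and with single libraries, and their part in the other differences was not tested.

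Glial lists held few called genes with all 5 sheep. None of 14 oligodendrocyte genes was called, but 12 had a log2 fold change above 0 (median 0.626). In the 3-sheep comparison 8 were called higher (median 1.059), and 5 without sheep 694. Of 9 tested oligodendrocyte precursor genes VCAN was called higher and BMP4 lower (median 0.408), and BMP4 lost the call without sheep 690 (adjusted p 0.0709). MBP, which encodes myelin basic protein, was at 2710, 5502, 1961, 2238 and 3853 CPM in hippocampus and at 640, 2426 and 21972 CPM in neocortex, where the maximum was the motor cortex library of sheep 699. The hippocampal values lay inside that range (-0.15 ± 0.32, adjusted p 0.780). The astrocyte list had 1 of 12 called (median 0.008). GFAP, the intermediate filament of astrocytes, was at 3645, 4328, 3735, 3182 and 4797 CPM in hippocampus with a neocortical median of 2016 CPM and maximum of 3328 CPM, and differed by 1.05 ± 0.15 (adjusted p 0.00722), or by 0.98 without sheep 688. The water channel AQP4 (0.98) and the gap junction gene GJA1 (0.82) had adjusted p of 0.0241 and 0.0207 below the fold threshold. None of 11 microglial genes was called (median -0.228). Of 12 endothelial and mural genes, 1 (RGS5, of pericytes) was called lower in 5 sheep and 7 in the 3-sheep comparison. Without sheep 699, 3 were called lower. RGS5 lost the call without sheep 687, 690 or 694 (adjusted p 0.0592 to 0.126). The mean log2(CPM + 1) of the endothelial and mural list in hippocampus was 3.317 to 4.022 in sheep 687, 688 and 690, 5.710 in sheep 694 and 6.027 in sheep 699. In neocortex it ranged from 3.864 to 7.161, with a median of 4.879.

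Genes were also taken by the size of their difference, inside or outside the lists, among those called with no overlap between the groups and a mean of at least 10 CPM. On the lower side the largest was TRPV6, a calcium-selective channel gene. It was at 1.10, 1.19, 0.786, 0.935 and 1.27 CPM in hippocampus and at 1.83, 16.3 and 29.7 CPM in neocortex, a log2 fold change of -3.96 ± 0.19 or 15.6-fold (adjusted p 0.000594). HAPLN4, a link protein of the matrix nets around neurons, averaged 15.2 ± 9.07 and 192 ± 62.9 CPM and differed by -3.82 ± 0.38 (adjusted p 0.00319). EPHB6, an ephrin receptor without kinase activity, was at 4.53, 4.61, 4.55, 3.95 and 5.15 CPM in hippocampus. Its neocortical minimum was 5.46 CPM in the motor cortex library of sheep 687 and 29.4 CPM in the others, and it differed by -3.41 ± 0.17 (adjusted p 0.000594). EFNA5, a guidance ligand (-2.48), CDH13, a cadherin attached to the membrane by a lipid anchor (-1.56), RELL2 (-1.73), SEL1L3 (-1.63), KCNAB3, a potassium channel subunit (-1.56), and ZNF385D (-1.50) were also lower.

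On the higher side 10 genes met the same conditions. SOWAHA, an ankyrin repeat gene, was at 46.0, 60.5, 38.3, 79.6 and 39.1 CPM in hippocampus and at 2.22, 11.1 and 25.2 CPM in neocortex. It differed by 1.97 ± 0.28, or 3.91-fold, with an adjusted p of 0.00722. PLEKHA2, a phosphoinositide-binding adaptor gene, followed with 1.38 ± 0.14 (adjusted p 0.00319). EGFR, the epidermal growth factor receptor, and TGFA, one of its ligands, were both higher. EGFR was at 21.2, 18.4, 31.9, 28.5 and 17.5 CPM with a neocortical maximum of 17.0 CPM (1.17 ± 0.13, adjusted p 0.00410). TGFA was at 20.9, 17.0, 17.9, 31.6 and 15.6 CPM with a maximum of 13.6 CPM (1.02 ± 0.16, adjusted p 0.0106), and without sheep 687 or 694 it was under the fold threshold, at 0.95 and 0.87. VCAN, a proteoglycan of the extracellular matrix, had closely grouped values of 52.3, 51.0, 61.2, 60.9 and 51.4 CPM, above a neocortical maximum of 46.6 CPM. Its difference was 1.02 ± 0.09 with an adjusted p of 0.00248. DPF3 (1.20), WNK4 (1.16), GLIS3 (1.08), and DOCK10 (1.03) were also among the 10. VCAN and WNK4 came under the fold threshold without sheep 688, GLIS3 without sheep 688 or 694 and DOCK10 without sheep 688 or 690.

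**Figure D4:**
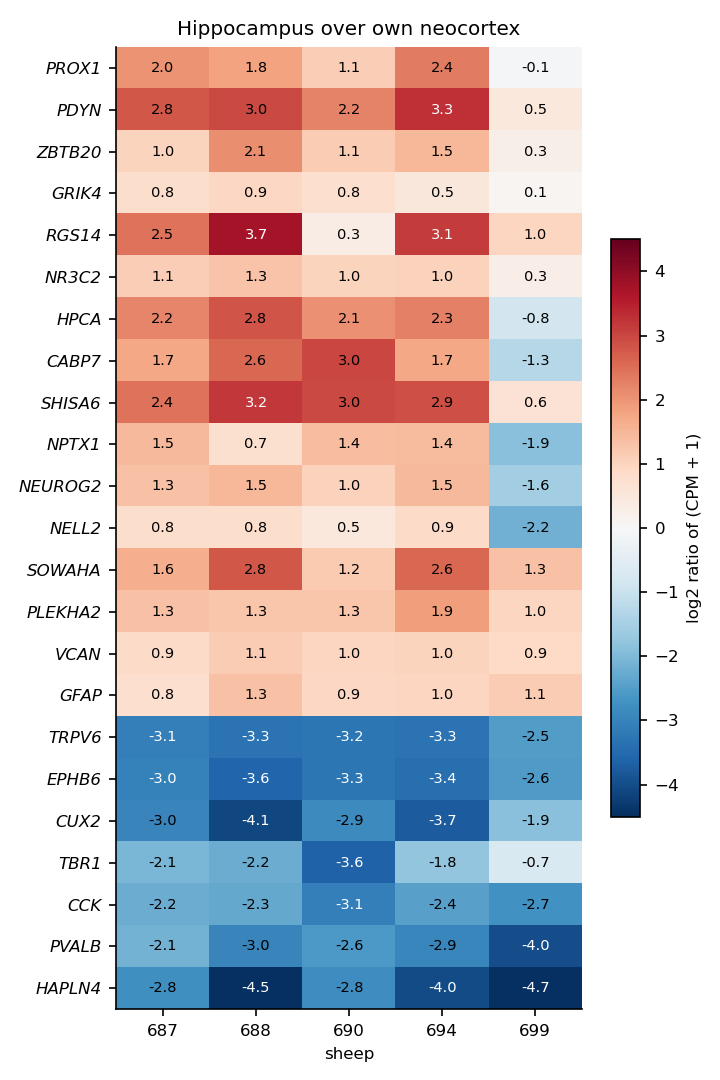
Log2 ratio of (CPM + 1) in hippocampus over the mean of the same sheep's 5 neocortical libraries (colour and number) for 23 genes (rows) in 5 sheep (columns). Ratios of the genes in the lower rows, from TRPV6 down, are below 0 in all 5 sheep. Those of PROX1, HPCA, CABP7, NPTX1, NEUROG2 and NELL2 are above 0 in 4 sheep and below 0 in sheep 699, for PROX1 only slightly (-0.105).

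Regions of the neocortex were also taken singly. Hippocampus differed from frontal cortex in 1206 genes (6.23%), from prefrontal cortex in 1122 (5.79%), from visual cortex in 1061 (5.47%) and from posterior parietal cortex in 986 (5.09%), over 5 sheep by edgeR with the sheep as a block. Against motor cortex no gene (0.00%) was called in 5 sheep, with 3907 genes at an unadjusted p below 0.05 and a smallest adjusted p of 0.0908. With the 4 sheep other than 687, 819 genes (4.24%) were called against motor cortex. Of the calls, 833 in frontal, 824 in visual, 789 in prefrontal and 695 in posterior parietal cortex were shared with the calls against the summed neocortex, all in the same direction. These comparisons share the 5 hippocampal libraries, and each region is itself part of the summed neocortex. Shared calls are therefore in part built in.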

How the data were processed

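Raw counts per gene were deposited, 1 column per library, for 31304 sheep genes. Per the series' design text in the labels, reads were trimmed with Trimmomatic 0.39, aligned with STAR 2.7.5a to ARS-UI_Ramb_v3.0 and counted with Rsubread 2.20.0. How strand and reads shared by genes were treated is not given in the sources used here, so genes with near-identical copies or overlapping neighbours are uncertain.

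The test was edgeR's quasi-likelihood test (edgeR 4.0.16, R 4.3.3) with TMM factors, filterByExpr by tissue on the 30 libraries and a prior count of 0.125. Counts of the 5 neocortical libraries were summed per sheep. Adjusted p-values are Benjamini-Hochberg values over all tested genes. The SE of a log2 fold change was derived by dividing its size by the root of F. The sheep number marks the animal and pairs the samples. Deviations of hippocampus and neocortex from their tissue means correlated by 0.145 to 0.534 within a sheep, and for sheep 688 the correlation with another sheep was higher (0.380). The script was tested on simulated data. Total counts of 46.7 to 72.4 M per library set the precision of low genes. Among the entries with placeholder symbols, 4 held 4.54% to 11.4% of the counts of a library.

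Of 459 genes in 35 lists, 446 were in the table. List levels are means of log2(CPM + 1). Named genes were in each direction the 12 called genes that differed most and had no overlap between groups, 10 CPM or more on average in the higher of them and no placeholder symbol (only 10 met this upward), up to 4 called members per list and direction, and defining members. Members and lists were chosen with earlier results of these data known. Alternatives were RLE and upper quartile factors, no filter, limma-voom (limma 3.58.1), DESeq2 1.42.0, no block, 30 separate libraries, single regions, no placeholder entries and leaving out sheep. 3 were added after the data were seen: without the motor cortex library of sheep 687, that with only sheep 687, 688 and 690, and motor cortex alone without sheep 687. The values of some genes are not reported here, and they stay in all fits and list counts. No sheep genome or annotation was used here, so no positions are given.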

Additional observations from a re-analysis of the deposited data

Results flagged for a closer look

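In 156 sets of 5 hippocampal values, 15 had 1 sheep far from the other 4 by the gap between it and its nearest neighbour relative to the whole range. Chance flags about 1 in 20 such groups, but these sets cannot be held against that rate, since HPCA, NELL2, NPTX1, NEUROG2 and CPNE6 were chosen after their values were seen and the cerebellar genes were included to check sheep 694. 7 of the 15 were sheep 699, 6 sheep 694, 1 sheep 687 and 1 sheep 688. Values are log2 ratios of (CPM + 1), hippocampus over the mean neocortex of the same sheep, unless stated.

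Sheep 699 was the lowest for HPCA (-0.843, others 2.06 to 2.84), NELL2 (-2.15, others 0.458 to 0.854), NPTX1 (-1.88, others 0.716 to 1.47), NEUROG2 (-1.56, others 1.03 to 1.50), CPNE6 (-0.23, others 1.26 to 1.85) and NR3C2 (0.282, others 1.01 to 1.30). It was the highest for EGR1 (0.413, others -2.23 to -1.54).

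Sheep 694 was the highest for GABRA6 (1.50, others 0.0 to 0.056), EN2 (1.12, others 0.0 to 0.084) and TFAP2C (0.865, others 0.28 to 0.439). It was also the highest in the mean log2(CPM + 1) of the cerebellar neuron list (2.47, others 1.62 to 1.84), of its defining genes (1.54, others 0.492 to 0.601) and of the choroid plexus list (3.05, others 1.40 to 1.74).

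Sheep 688 was the lowest for OPRK1 (-2.15, others -0.887 to -0.592), the kappa opioid receptor. Sheep 687 was the highest for VIP (-0.686, others -2.41 to -2.03), and its neocortical mean includes the motor cortex library that held 12.4 CPM of VIP.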

How the results depend on the processing

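Among 18 alternatives chosen with the design and 3 added after the data were seen, none reversed the direction of a called named gene. More genes were called lower than higher (685 and 522), and the balance turned with 30 separate libraries (706 lower, 854 higher), with prefrontal cortex alone (525 and 597) and in the 3-sheep comparison (790 and 798). Leaving out 1 sheep at a time gave 682 to 1401 calls, 209 to 641 higher and 437 to 760 lower. Motor cortex alone gave 0 calls in total, 0 higher and 0 lower by edgeR (3907 genes at an unadjusted p below 0.05), and 431 lower with the 4 sheep other than 687. DESeq2 called 1525 genes and limma-voom 1300. Without the replicate block 1068 genes were called, 976 of them shared with the blocked fit, and of 102 called named genes 92 kept their call. The 10 that lost it without the block were ADCYAP1, BMP4, CPLX3, CPNE6, EGR4, ESR2, GRIN3A, LAMP5, RGS5 and SEMA3E. Of those 102, 96 kept their call without sheep 699, 82 without 688, 75 without 687, 73 without 694 and 70 without 690, and all 102 did without the motor cortex library of sheep 687, with DESeq2 and with RLE factors. Calls of EOMES and WNT8B rest on levels near 1 CPM or below, where counts are few.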

Other observations

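The striatal, cerebellar and meningeal lists held further called genes. Of 11 tested striatal genes 2 were called higher and 3 lower (median -0.460). Without sheep 688, 690 or 694 it was 1 higher and 2 lower. PENK, the enkephalin precursor, was at 6.89, 5.54, 1.96, 5.06 and 2.67 CPM in hippocampus and averaged 27.0 ± 7.61 CPM in neocortex, a log2 fold change of -2.67 ± 0.23 with an adjusted p of 0.00250 by edgeR. SIX3, a forebrain homeobox gene, was called higher at 4.36 ± 1.14, with 0.357, 0.388, 0.757, 1.41 and 6.92 CPM in hippocampus, and the call was lost without any 1 of sheep 688, 690, 694 and 699 (adjusted p 0.0640 to 0.122). CA8, a carbonic anhydrase-related gene of the cerebellar list, was lower (-2.75 ± 0.35). In the meningeal and fibroblast list only CRABP2, a retinoic acid carrier, was called, and lower (-1.78 ± 0.18). COL1A1 was at 4.55 to 8.16 CPM in sheep 687, 688 and 690, 128 CPM in sheep 694 and 150 CPM in sheep 699. DCN, which encodes the matrix proteoglycan decorin, reached 181 CPM in the motor cortex library of sheep 687 and at most 64.6 CPM in the other 24.

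The library labelled hippocampus of sheep 699 also had the highest APLNR (48.4 CPM, against 0.56 to 7.31 CPM in the other hippocampal libraries) and MEIS1 (18.7 CPM, against 2.43 to 5.27 CPM). Its NEUROD6, a factor of pyramidal neurons, was at 1.27 CPM, against 29.1 to 85.6 CPM in the other 4 and at least 13.7 CPM in neocortex. These genes were looked at after the values of this library were seen.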
